A study of Mus musculus with 48 samples.

Results

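The 9 genes described here encode the pore-forming subunits of the AMPA receptors (Gria1, Gria2, Gria3 and Gria4) and of the kainate receptors (Grik1, Grik2, Grik3, Grik4 and Grik5). They were taken by symbol, 9 of the 48795 genes in the count table, and all 9 had enough reads to be tested among 19975 genes. RNA of dissected striatum was sequenced from 48 libraries of C57BL/6 mice aged 6 months, 24 female and 24 male. Q140 mice are heterozygous for an Htt knock-in allele with a lengthened CAG tract and model Huntington's disease, while the product of Msh3 takes part in DNA mismatch repair. The labelled groups with the knock-in were Q140 Msh3-/- (n = 8), Q140 Msh3+/- (n = 8) and Q140 (n = 8). Those without it were Msh3-/- (n = 8), Msh3+/- (n = 9) and wild type (n = 7). Every group had 4 females and 4 males, except Msh3+/- with 5 females and 4 males and wild type with 3 females and 4 males. The Q140 label names no Msh3 mutation, and that group is read below as having both Msh3 alleles (Msh3+/+). The labels name no Cre driver or transgene and do not describe the Msh3 allele further. Whether every library came from its own mouse is not stated, and p-values then measure the spread between these libraries.

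Most fast excitatory transmission in the striatum comes from cortical and thalamic glutamate acting on AMPA receptors of medium spiny neurons, the principal cells of this nucleus. AMPA receptors are tetramers of the 4 Gria products, and the edited Gria2 product makes them impermeable to calcium. Kainate receptors form from the Grik1 to Grik3 products, which can make channels alone, joined by the Grik4 and Grik5 products, which bind kainate with high affinity but need one of the others to reach the surface. Auxiliary proteins set the gating and delivery of both families, TARPs, cornichons and the Gsg1l product for AMPA receptors and the Neto proteins for kainate receptors.

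Library totals ran from 33.67 M to 52.81 M counts, and the common coefficient of biological variation was 10.3%. Msh3 itself had more reads in the libraries labelled as mutants: the median was 122.9 CPM in Q140 Msh3-/-, 77.13 CPM in Q140 Msh3+/- and 32.46 CPM in Q140, and 117.1 CPM in Msh3-/-, 78.43 CPM in Msh3+/- and 31.1 CPM in wild type. The altered part of Msh3 is not given, so gene counts do not check the allele, and every direction along Msh3 genotype rests on the labels. The striatal origin fits the markers, since 20 medium spiny neuron genes summed to between 20450 and 23180 CPM in wild type libraries against 135.1 to 200.5 CPM for 10 cortical neuron genes. A set of 5 libraries, called here those that stand apart, was left out together in an alternative fit. They were Q140 Msh3+/- F1, Q140 M2, Msh3+/- F5 and wild type F3 and M2, named by group, sex letter and number. No rule for this choice is given here. The summed level of 10 choroid plexus genes reached 4490 CPM in Q140 Msh3+/- F1 and 640.6 CPM in wild type M2. It was at most 70.39 CPM in Q140 libraries, M2 included, and 88.38 CPM in Msh3+/- libraries, F5 included. For the 10 cortical neuron genes the highest sum was 187.5 CPM in Q140 and 297.2 CPM in Msh3+/-.

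Levels of different genes were compared as FPKM, reads per length and per library total, using the fixed length the deposited values imply for each gene. Whether those lengths match the transcripts present was not tested, so the order below holds for FPKM. Gria1 had the highest values, with a median of 106.4 FPKM over the 48 libraries (range 99.15 to 115.9). Gria2 followed at 62.05 FPKM (52.86 to 69.23) and Grik5 at 53.14 FPKM (48.2 to 62.61), and Gria2 was above Grik5 in 43 of 48 libraries. A middle tier held Gria3 at 25.21 FPKM (20.59 to 27.92), Grik2 at 21.52 FPKM (15.15 to 23.84), Grik3 at 21.46 FPKM (18.81 to 23.07) and Gria4 at 14.69 FPKM (13.26 to 16.21). Grik3 was above Grik2 in 23 of 48 libraries, so those neighbours had no fixed order over all groups together. Grik2 over Grik3 ran from 0.657 to 0.867 in Q140 and from 0.980 to 1.095 in wild type. Gria3 was above Grik3 in 45 of 48 libraries and Grik2 above Gria4 in 47. Grik4 at 2.029 FPKM (1.503 to 2.805) and Grik1 at 0.642 FPKM (0.4701 to 0.9858) were far below the rest in all 48 libraries.

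**Figure D1:**
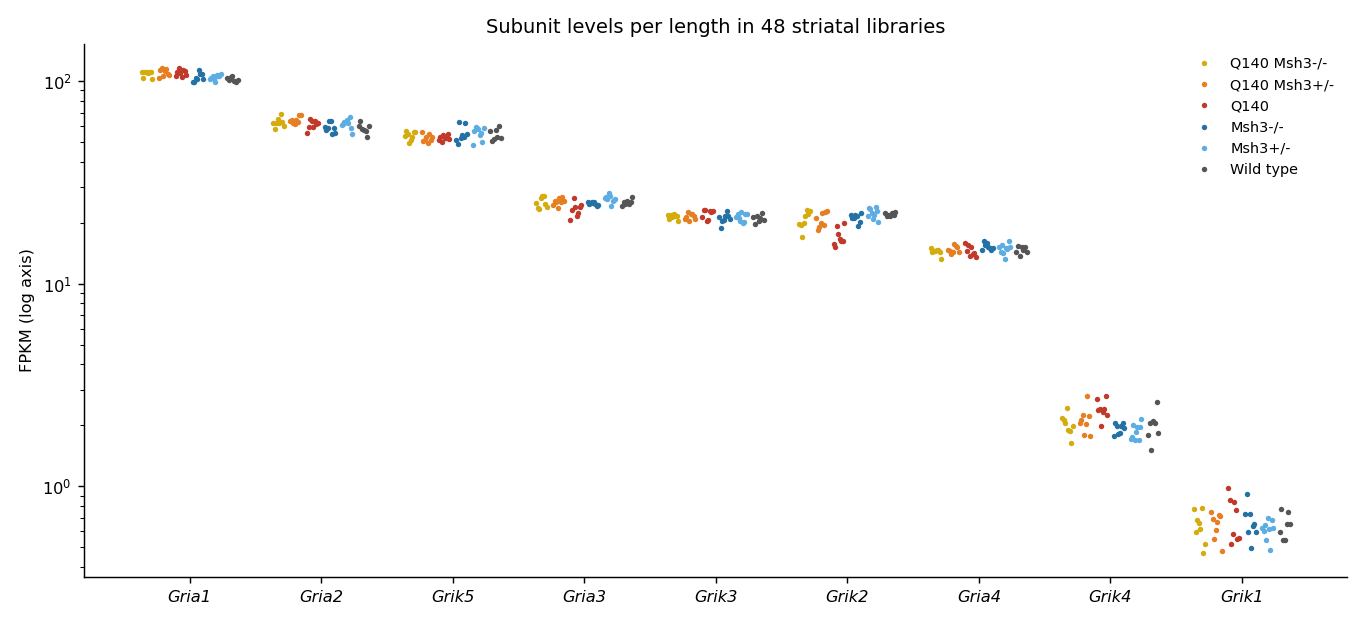
Level per length (FPKM, log axis) of the 9 subunit genes, ordered by mean, with 1 point per library and colours for the 6 groups. Gria1 lies near 106.4 FPKM and Grik1 near 0.642 FPKM, and the Q140 points of Grik2 lie below its wild type points.

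These levels set the make-up of each family. Gria1 took a median of 51.49% of the summed FPKM of the 4 AMPA genes, Gria2 29.53%, Gria3 12.07% and Gria4 7.052%. Among the 5 kainate genes Grik5 took 54.53%, Grik3 21.51%, Grik2 21.36%, Grik4 2.034% and Grik1 0.6425%. The AMPA sum was 2.192 times the kainate sum at the median in Q140 libraries (range 2.127 to 2.334) and 2.004 times in wild type (1.799 to 2.165). On read counts not divided by length (CPM) Gria2, whose implied length is 15548 bases against 6043 for Gria1, took the largest AMPA share, 49.21% in Q140 and 48.27% in wild type libraries.

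The 9 genes lie on 8 chromosomes of GRCm38 and are long. Grik2 is at chr10:49094833-49788766 on the minus strand, Grik5 at chr7:25009849-25072346 on the minus strand and Grik3 at chr4:125490700-125714173 on the plus strand. Gria1 is at chr11:57011387-57330244 on the plus strand, Gria2 at chr3:80681450-80802835 and Gria4 at chr9:4417896-4796234, both on the minus strand. Gria3, at chrX:41400854-41678601 on the plus strand, is the only member on a sex chromosome. Grik4, at chr9:42518135-42944493, and Grik1, at chr16:87895900-88290265, are on the minus strand. Annotated genes inside these spans held few reads, at most 221 over all libraries for a pseudogene in Grik3, against 412811 for Grik3.

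RefSeq promoter sequence on GRCm38.p6 was matched for 6 of the 9 genes, and the 250 bases before the start are shown for 3 genes whose reads fell in Q140 (Grik2, Grik5 and Gria4) and 2 whose reads did not pass the test there (Gria2 and Grik3). They are at chr10:49788755-49789004 for Grik2, chr7:25072370-25072619 for Grik5, chr9:4796235-4796484 for Gria4 and chr3:80802836-80803085 for Gria2, each read on the minus strand, and at chr4:125490446-125490695 for Grik3 on the plus strand. Capitals mark matches, on either strand, to GGGCGG, the GC box bound by Sp1-type factors, and to TGCGCA, the core of the NRF1 element.
Grik2: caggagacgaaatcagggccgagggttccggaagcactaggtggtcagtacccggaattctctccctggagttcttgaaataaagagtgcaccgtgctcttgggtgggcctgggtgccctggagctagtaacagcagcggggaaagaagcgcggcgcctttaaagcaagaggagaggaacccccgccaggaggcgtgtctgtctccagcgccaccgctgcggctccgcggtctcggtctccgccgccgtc
Grik5: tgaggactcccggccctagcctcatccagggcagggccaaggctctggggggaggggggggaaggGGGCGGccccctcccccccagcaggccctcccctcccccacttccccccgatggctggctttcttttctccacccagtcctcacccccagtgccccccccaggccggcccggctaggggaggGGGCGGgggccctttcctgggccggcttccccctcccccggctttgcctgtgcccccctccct
Gria4: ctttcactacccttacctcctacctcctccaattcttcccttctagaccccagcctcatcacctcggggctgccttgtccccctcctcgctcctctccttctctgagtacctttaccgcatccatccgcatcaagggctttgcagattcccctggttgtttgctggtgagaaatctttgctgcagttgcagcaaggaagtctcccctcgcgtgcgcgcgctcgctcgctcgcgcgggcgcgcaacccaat
Gria2: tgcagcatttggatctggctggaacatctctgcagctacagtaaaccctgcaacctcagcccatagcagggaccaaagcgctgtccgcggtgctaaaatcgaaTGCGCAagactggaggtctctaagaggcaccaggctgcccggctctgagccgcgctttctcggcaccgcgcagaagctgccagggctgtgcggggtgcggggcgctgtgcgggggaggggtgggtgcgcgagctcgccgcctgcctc
Grik3: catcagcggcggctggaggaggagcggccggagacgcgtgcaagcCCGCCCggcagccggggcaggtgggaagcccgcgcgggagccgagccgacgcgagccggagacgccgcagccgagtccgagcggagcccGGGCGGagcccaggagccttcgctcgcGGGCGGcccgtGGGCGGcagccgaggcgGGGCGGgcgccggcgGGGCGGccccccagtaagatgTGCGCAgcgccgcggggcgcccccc
Neither the Grik2 nor the Gria4 stretch held a match to any of the 6 motifs searched. Grik5 held 2 GC boxes, Grik3 held 6 and Grik4, not printed here, held 1, a motif present in 32.74% of 32851 promoter stretches of this length. Gria2 and Grik3 each held 1 NRF1 core, a motif present in 6.432%. None of the 6 promoters held TGACG, the core of the CREB site (17.77% of all promoters), its full palindrome TGACGTCA, which contains that core (1.546%), the E-box CAGCTG (4271 of 32851) or TATAAA (12.37%). Grik3 had 42 CpG dinucleotides, Grik4 36, Grik2 20, Gria2 19, Gria4 16 and Grik5 8, against a median of 6 over all promoters. These matches describe letters in a window.

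The effect of the expanded repeat was read from Q140 against wild type. Of the 9 subunit genes 4 fell and none rose at an adjusted p under 0.05 (edgeR's quasi-likelihood test with Benjamini-Hochberg adjustment over all genes), where 19.9% of all genes tested were called, 1926 up and 2043 down. Grik2 had the largest change, Gria3 a smaller one, and the falls of Grik5 and Gria4 were slight. The median log2 change of the 9 was -0.01, against 0.01 over all genes. With limma on log2(FPKM + 0.1), which changes both the test and the scaling (to library totals), the count over all genes was 4944 up and 1086 down, and among the subunits Grik2 and Gria3 fell and Gria1 and Grik4 rose. RLE in place of TMM, a change of scaling alone, gave 1725 up and 2182 down.

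Grik2 encodes GluK2, a kainate subunit that forms channels by itself. Its lowest, median and highest levels were 120.6, 130.6 and 163.1 CPM in Q140, against 178.1, 184.7 and 192.0 CPM in wild type. Every Q140 library was below every wild type library. No other member separated the groups in this way, which 3.52% of all genes tested did in either direction. The log2 change was -0.44 (SE 0.0534, 95% interval -0.55 to -0.34, adjusted p = 2.01e-08), a change of -26.4%. In bulk tissue fewer cells of a type and less RNA per cell cannot be told apart, and 20 medium spiny neuron genes summed to 12450 to 18150 CPM in Q140 and 20450 to 23180 CPM in wild type, a difference whose part in the Grik2 result was not tested. Grik2 averaged 134.3 ± 17.0 CPM in Q140 females (n = 4) and 183.6 ± 5.67 CPM in wild type females (n = 3), and 137.6 ± 17.1 CPM in Q140 males and 186.4 ± 3.8 CPM in wild type males (SD, n = 4 each).

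The coefficient of variation of Grik2 between libraries was 11.7% in Q140 and 2.42% in wild type, a difference that was not tested. With Grik2 lower, its median share of the kainate FPKM was 17.48% in Q140 (16.02 to 20.44%) and 22.48% in wild type (20.35 to 23.05%). Grik2 over Grik3 in FPKM had a median of 0.768 in Q140 libraries (0.657 to 0.867) and 1.06 in wild type libraries (0.980 to 1.095), so Grik2 lay below Grik3 in every Q140 library.

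Gria3, on the X chromosome, encodes GluA3, which pairs with GluA2 in AMPA receptors. Its lowest, median and highest levels were 188.8, 223.4 and 257.1 CPM in Q140, against 244.8, 248.3 and 269.6 CPM in wild type. Of 8 Q140 libraries 7 were below all wild type libraries, and Q140 F3, at 257.1 CPM, lay among them. The log2 change was -0.19 (SE 0.0439, 95% interval -0.28 to -0.10, adjusted p = 0.00104). Its median share of the AMPA FPKM was 11.17% in Q140 and 12.56% in wild type, and the ranges, 10.41 to 11.90% in Q140 and 12.02 to 13.14% in wild type, did not overlap.

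Grik5 encodes GluK5, the partner that raises the kainate affinity of assembled receptors. It ran from 246.7 CPM through a median of 263.3 to 277.2 CPM in Q140, against 261.5, 277.7 and 314.6 CPM in wild type. All 8 Q140 libraries were below the wild type median, but 5 of them lay within the wild type range. The log2 change was -0.13 (SE 0.0477, adjusted p = 0.0401), and without any 1 of Q140 F1, F3, M1 or M2 or wild type F1, M1 or M3 the adjusted p was between 0.0517 and 0.103.

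Gria4 encodes GluA4, an AMPA subunit with fast kinetics that is strong in some interneurons. It ran from 82.97 CPM through a median of 87.83 to 95.77 CPM in Q140, against 87.06, 93.06 and 98.8 CPM in wild type. The groups overlapped, with 3 of 8 Q140 libraries below all wild type libraries. The log2 change was -0.09 (SE 0.0339, adjusted p = 0.0466). It missed the threshold, at an adjusted p of 0.05 to 0.105, without any 1 of 12 libraries: Q140 F2, F4, M1, M2, M3 or M4, wild type F2, M1 or M3, Msh3-/- M2, Q140 Msh3+/- F2 or Q140 Msh3-/- F2. It also missed with no filter on low counts (adjusted p = 0.0994), plate column as a covariate (adjusted p = 0.149) or only the groups compared (adjusted p = 0.112), and Grik5 missed with no filter (adjusted p = 0.0699) or plate row (adjusted p = 0.0603). In the limma fit on FPKM the falls of Gria4 (-0.01, adjusted p = 0.819 with limma) and Grik5 (-0.05, adjusted p = 0.4 with limma) did not pass.

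The other 5 subunits did not pass the test. Gria1, the highest on FPKM, had 582.4, 643.5 and 686.8 CPM (lowest, median and highest) in Q140, against 607.0, 631.2 and 661.6 CPM in wild type. Its log2 change was 0.02 (95% interval -0.04 to 0.09). Gria2 had 802.6, 940.5 and 997.1 CPM in Q140, against 836.0, 920.2 and 989.8 CPM in wild type (-0.01, interval -0.10 to 0.08). Grik3 had 170.8, 198.3 and 204.1 CPM in Q140, against 176.5, 190.2 and 203.4 CPM in wild type (-0.002, interval -0.08 to 0.08). For these abundant genes the Q140 and wild type ranges lay over each other, and the intervals leave room for changes of at most about 0.1 on the log2 scale. In the limma fit on FPKM Gria2 was at 0.07 and Grik3 at 0.08, the opposite sign, and Gria1 was called up in Q140 (0.10, adjusted p = 0.00293 with limma).

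Grik4 encodes GluK4, the second high-affinity partner, and was the only member with a positive change of some size. It ran from 11.31 CPM through 13.76 to 16.4 CPM in Q140, against 9.063, 12.18 and 15.79 CPM in wild type, where 1 library, M3, gave the highest value and the next was 12.90. The log2 change was 0.20 (SE 0.0858, 95% interval 0.03 to 0.37, adjusted p = 0.0943), and 0.27 without wild type M3 (adjusted p = 0.0173). On FPKM it was called (0.28, adjusted p = 0.00887 with limma). Grik1, which encodes GluK1, was read 127 to 268 times a library. It had 3.161, 4.002 and 5.665 CPM in Q140, against 3.38, 4.054 and 4.787 CPM in wild type, and its log2 change of 0.04 carried a wide interval of -0.20 to 0.28.

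**Figure D2:**
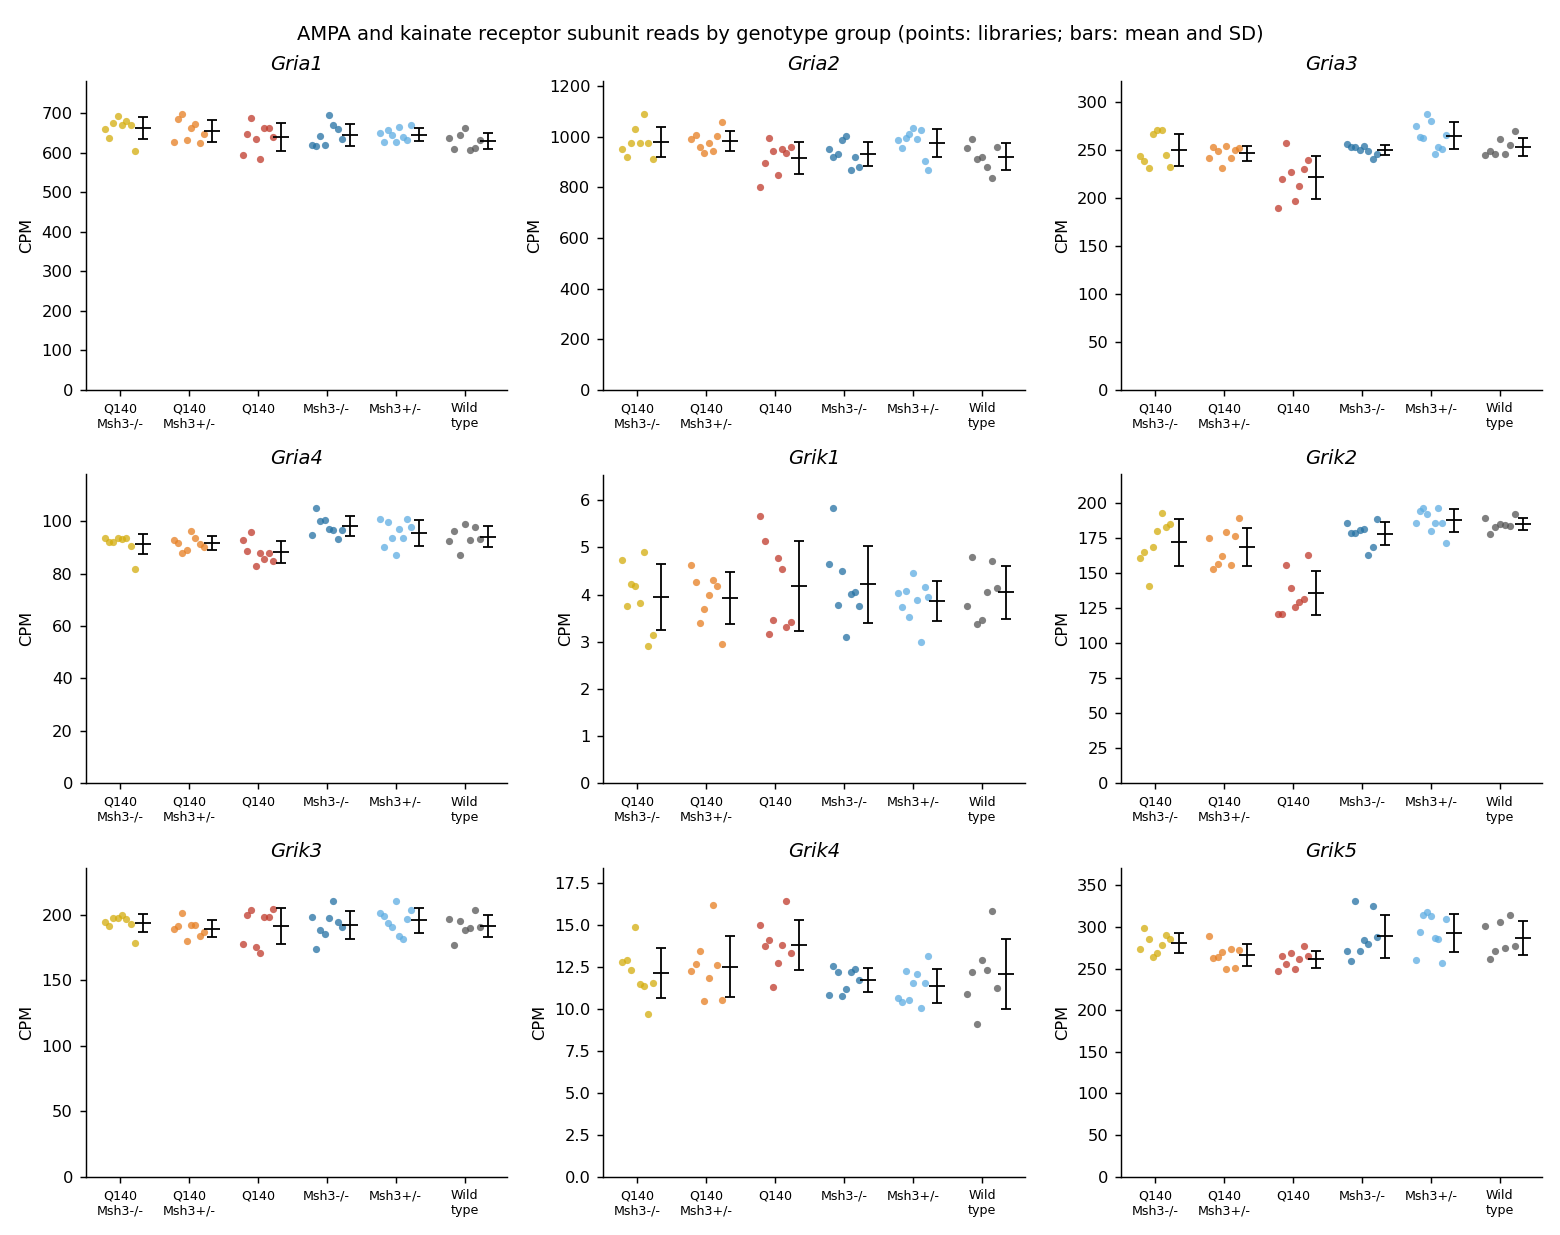
CPM (TMM-scaled reads relative to the library total) of each subunit gene in each library (points) with the mean and SD (bars), by group, on axes that start at 0. Grik2 runs from 120.6 to 163.1 CPM in Q140, below all wild type libraries, and lies higher in both Q140 groups labelled as Msh3 mutants.

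Whether the labelled Msh3 genotype goes with other levels in Q140 striatum was read from the Q140 Msh3-/- and Q140 Msh3+/- groups against Q140. Grik2 and Gria3 rose in both comparisons, and the other 7 members were not called in either. In Q140 Msh3-/- against Q140, 2 of 9 members rose and none fell, where 11.9% of all genes tested were called, 1368 up and 1006 down, or 819 up and 3461 down with limma on FPKM. In Q140 Msh3+/- against Q140, 2 of 9 rose and none fell, where 1.98% of all genes were called, 256 up and 139 down, or 237 up and 558 down with limma on FPKM. The count over all genes in Q140 Msh3+/- against Q140 was 125 with plate column as a covariate, 35 without the 5 libraries that stand apart and 4 with only the groups compared, which call 1, 1 and 0 subunits. These comparisons and Q140 against wild type share the 8 Q140 libraries, so low values there enter each of them.

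Grik2 had 141.2, 174.5 and 193.1 CPM (lowest, median and highest) in Q140 Msh3-/- and 153.2, 168.9 and 189.7 CPM in Q140 Msh3+/-, against 120.6, 130.6 and 163.1 CPM in Q140. All 8 libraries of each Msh3 mutant group were above the Q140 median, and 6 of 8 Q140 Msh3-/- and 4 of 8 Q140 Msh3+/- libraries were above every Q140 library. The rise was 0.34 on the log2 scale in Q140 Msh3-/- (SE 0.0517, adjusted p = 9.45e-06) and 0.31 in Q140 Msh3+/- (SE 0.0517, adjusted p = 5.69e-04). With only the 2 groups compared in the fit, the adjusted p of the second was 0.0821.

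Gria3 had 231.0, 243.9 and 270.5 CPM in Q140 Msh3-/- and 230.5, 249.1 and 253.9 CPM in Q140 Msh3+/-, against 188.8, 223.4 and 257.1 CPM in Q140. All libraries of both Msh3 mutant groups were above the Q140 median, and the ranges overlapped through Q140 F3 at 257.1 CPM and Q140 M4 at 239.1 CPM. It rose by 0.17 in Q140 Msh3-/- (SE 0.0424, adjusted p = 0.00412) and by 0.15 in Q140 Msh3+/- (SE 0.0424, adjusted p = 0.044). With only the groups compared in the fit the first had an adjusted p of 0.0692. The second missed the threshold without any 1 of Q140 F1, F2, F4, M1 or M2 or Q140 Msh3+/- F1, F2, F3, M1, M3 or M4, at an adjusted p of 0.0557 to 0.147.

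The other subunits are given by value. The log2 change in Q140 Msh3-/- against Q140 was 0.10 for Gria2 (adjusted p = 0.132), 0.10 for Grik5 (adjusted p = 0.149), 0.05 for Gria1 and for Gria4, 0.02 for Grik3, -0.09 for Grik1 and -0.18 for Grik4 (adjusted p = 0.147). On FPKM the signs of Gria1 (-0.01), Gria4 (-0.02) and Grik3 (-0.04) turned, and Grik4 was called down (-0.24, adjusted p = 0.0238 with limma). Grik5 ran from 263.8 CPM through 281.8 to 299.0 CPM in Q140 Msh3-/-, with all 8 libraries above the Q140 median and 5 above every Q140 library. Grik4 had 9.708, 11.91 and 14.88 CPM in Q140 Msh3-/-, with 7 of 8 libraries below the Q140 median. In Q140 Msh3+/- against Q140 these 7 members ran from -0.14 for Grik4 to 0.10 for Gria2.

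The Q140 Msh3-/- and Q140 Msh3+/- groups were also set against each other, and no subunit differed detectably. None of the 9 passed with edgeR, none was at an unadjusted p under 0.05 and none passed with DESeq2, where 0.015% of all genes were called. The difference was 0.03 for Grik2 (95% interval -0.08 to 0.13) and 0.02 for Gria3 (-0.07 to 0.10).

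Whether the Q140 effect itself differs by Msh3 genotype was tested as an interaction, the Q140 change on an Msh3 mutant background minus that on the Msh3+/+ background. For Msh3-/- 1 of 9 members was called, Grik2, where 2.39% of all genes were called, 334 up and 144 down, or 262 up and 883 down with limma on FPKM. Its Q140 effect was -0.05 on the Msh3-/- background (95% interval -0.16 to 0.05) and -0.44 with both Msh3 alleles, a difference of 0.39 (SE 0.0743, 95% interval 0.24 to 0.54, adjusted p = 0.00221). Gria3 differed by 0.19 in the same direction (SE 0.061, adjusted p = 0.0803), and without Q140 F3 or M4 its adjusted p was 0.0191 or 0.0362. For Msh3+/- none of 9 passed with edgeR or DESeq2 and 1 was at an unadjusted p under 0.05, where 0 of all genes (0%) were called with edgeR, 1621 were at an unadjusted p under 0.05 and DESeq2 called 15 up and 4 down. The member was Grik2, with a difference of 0.28 (SE 0.0733, adjusted p = 0.277), and without Q140 M4 it was 0.32 (adjusted p = 0.0448).

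**Figure D3:**
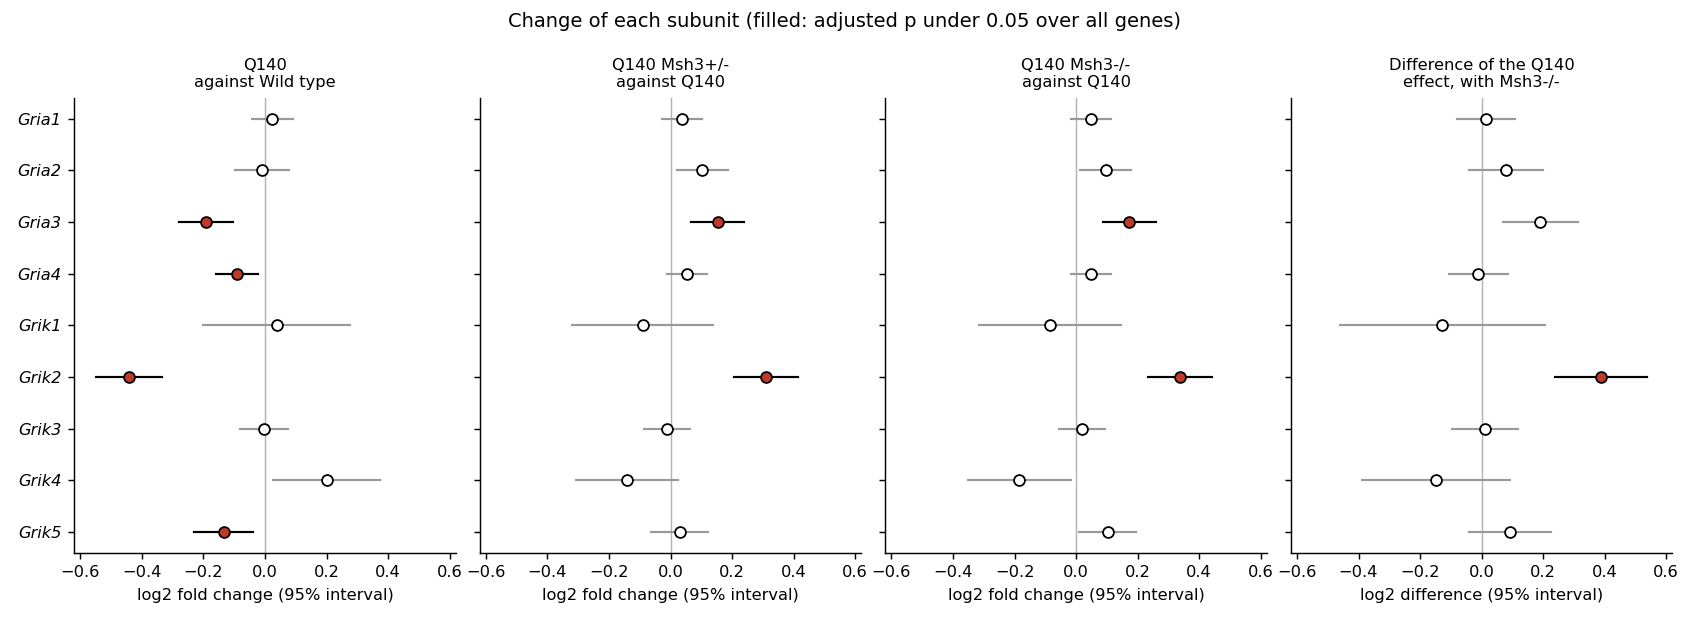
Log2 fold change with its 95% interval for each subunit gene in 3 comparisons and, at the right, the log2 difference of the Q140 effect between Msh3-/- and Msh3+/+ backgrounds. Filled points passed an adjusted p under 0.05 over all genes: Grik2 in all 4 panels and Gria3 in the first 3, with Gria4 and Grik5 in Q140 against wild type.

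Within each Msh3 mutant background the Q140 libraries were then set against their own controls. In Q140 Msh3+/- against Msh3+/- 1 of 9 members was called, where 6.45% of all genes were, 592 up and 697 down, or 1769 up and 419 down with limma on FPKM. Grik2 had 153.2, 168.9 and 189.7 CPM in Q140 Msh3+/-, against 171.6, 186.2 and 196.9 CPM in Msh3+/- (-0.16, SE 0.0502, adjusted p = 0.0453). Of 8 Q140 Msh3+/- libraries 4 were below every Msh3+/- library. That call did not survive leaving out any 1 of 25 libraries, at an adjusted p of 0.0509 to 0.112: Msh3+/- F1 to F5, M1 or M2, Q140 Msh3+/- F2, F3, F4, M2 or M3, Msh3-/- F2, M1 or M4, Q140 Msh3-/- F4, M2 or M3, or any wild type library. Grik5 was next (-0.14, SE 0.0449, adjusted p = 0.0543). In Q140 Msh3-/- against Msh3-/- none of 9 passed with edgeR or DESeq2, where 0.0751% of all genes were called. The 1 member at an unadjusted p under 0.05 was Gria4, with 81.88, 92.6 and 93.71 CPM in Q140 Msh3-/- and 93.05, 96.98 and 105.2 CPM in Msh3-/- (-0.10, adjusted p = 0.384).

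Against wild type, neither Q140 group labelled with an Msh3 mutation had a member called by edgeR. In Q140 Msh3-/- against wild type none of 9 passed with edgeR or DESeq2 and 1 was at an unadjusted p under 0.05, where 0.2% of all genes were called. Grik2 there was at -0.10 (95% interval -0.21 to 0.004) and Gria3 at -0.02 (-0.11 to 0.07). In Q140 Msh3+/- against wild type none of 9 passed with edgeR or DESeq2 and 3 were at an unadjusted p under 0.05, where 3.77% of all genes were called, 307 up and 446 down, or 1096 up and 283 down with limma on FPKM. Grik2 was at -0.13 (adjusted p = 0.172), Grik5 at -0.10 (adjusted p = 0.241) and Gria2 at 0.09 (adjusted p = 0.243). With limma on FPKM 2 members were called up in that comparison, Gria1 (0.11, adjusted p = 0.0109) and Gria2 (0.14, adjusted p = 0.0187).

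Msh3 mutation without the knock-in gave no called subunit. In Msh3-/- against wild type none of 9 passed with edgeR or DESeq2 and none was at an unadjusted p under 0.05, where 0.03% of all genes were called, and the log2 changes ran from -0.05 to 0.06. In Msh3+/- against wild type none of 9 passed with edgeR or DESeq2 and none was at an unadjusted p under 0.05, where 0.01% of all genes were called, and the changes ran from -0.08 to 0.08. Grik2 had 163.3, 180.0 and 189.1 CPM in Msh3-/- and 171.6, 186.2 and 196.9 CPM in Msh3+/-, against 178.1, 184.7 and 192.0 CPM in wild type, so the ranges overlapped widely. Gria3 had 239.7, 250.9 and 255.8 CPM in Msh3-/- and 245.8, 263.3 and 286.9 CPM in Msh3+/-, against 244.8, 248.3 and 269.6 CPM in wild type.

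No subunit was called between the sexes over the 48 libraries. In female against male none of 9 passed with edgeR or DESeq2 and none was at an unadjusted p under 0.05, where 2.93% of all genes were called, 330 up and 255 down, or 214 up and 338 down with limma on FPKM. X-linked Gria3 was at 0.006 (95% interval -0.04 to 0.06). The widest was Grik1 at 0.13 (interval -0.01 to 0.26).

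**Figure D4:**
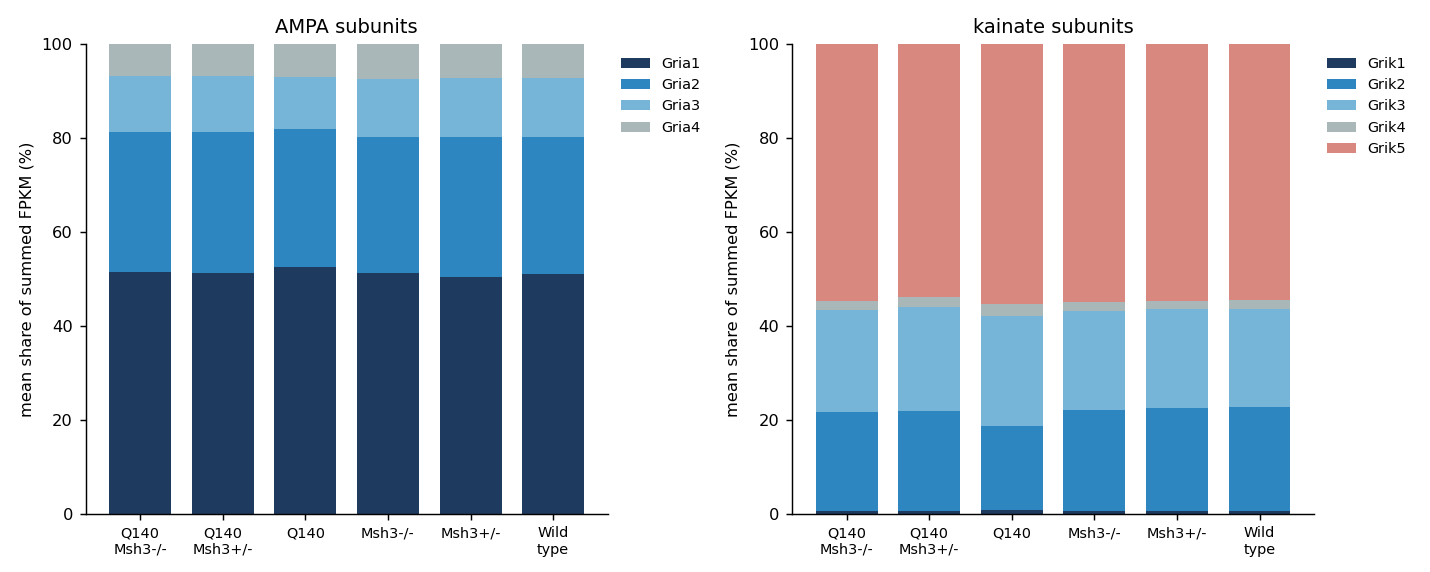
Mean share (%) of each subunit in the summed FPKM of its family, by group, as stacked bars that start at 0. The Grik2 share of the kainate genes is lower in Q140, at a median of 17.48%, against 22.48% in wild type.

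Genes whose products travel with these receptors were counted next. The share of all genes called was 19.9% in Q140 against wild type and 11.9% in Q140 Msh3-/- against Q140. Both kainate auxiliary genes fell in Q140 against wild type, and both rose in Q140 Msh3-/- against Q140. Neto2, which slows kainate receptor desensitization, had 85.32, 102.1 and 123.1 CPM in Q140, against 147.9, 158.1 and 194.2 CPM in wild type (-0.69, SE 0.0809, adjusted p = 2.0e-08), with no overlap. Neto1 had 131.5, 156.4 and 182.0 CPM in Q140, against 171.9, 176.5 and 196.5 CPM in wild type, which overlapped (-0.18, SE 0.0498, adjusted p = 0.00625). Neto2 rose by 0.50 (adjusted p = 1.93e-05) and Neto1 by 0.28 (adjusted p = 5.9e-05) in Q140 Msh3-/- against Q140.

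Of 19 AMPA auxiliary genes 7 fell, 3 rose and 9 did not pass in Q140 against wild type, with a median of -0.04. Over all genes tested 19.9% were called there. The fall was largest in Gsg1l, whose product slows AMPA receptor recovery, with 126.1, 134.6 and 173.4 CPM in Q140, against 203.9, 214.7 and 226.4 CPM in wild type (-0.58, adjusted p = 2.07e-10), and the groups did not overlap. The TARP gene Cacng4 fell by 0.38 (adjusted p = 5.73e-07), while the TARP gene Cacng7 (0.20, adjusted p = 1.13e-04) and Cpt1c, whose product binds Gria1 protein (0.20, adjusted p = 8.72e-06), rose. In Q140 Msh3-/- against Q140, 4 rose, 3 fell and 12 did not pass, with Gsg1l at 0.40, Cacng4 at 0.34, Cacng7 at -0.17 and Cpt1c at -0.13, each called. Of 20 scaffold and trafficking genes 9 fell and 2 rose in Q140, including the postsynaptic density genes Shank3 (-0.50), Dlgap3 (-0.45), Dlg4 (-0.25) and the actin linker gene Epb41l1 (-0.22). Of the same 20 genes 7 rose and 1 fell in Q140 Msh3-/- against Q140, with Shank3 at 0.34. There the share of all genes called was 11.9%.

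Genes for synaptic organizers and for the other glutamate receptors were counted beside these. Of all genes tested, 19.9% were called in Q140 against wild type and 11.9% in Q140 Msh3-/- against Q140. Of 15 organizer genes 5 fell and 1 rose in Q140 against wild type, with falls in the neuronal pentraxin receptor gene Nptxr (-0.37) and the neuroligin gene Nlgn1 (-0.27) and a rise in Lrrtm4 (0.20). Of 7 NMDA receptor genes 2 fell, Grin2b (-0.27) and Grin1 (-0.17), and of 7 metabotropic receptor genes tested 4 fell, among them Grm5 (-0.41) and Grm3 (-0.30). Of 2 delta receptor genes 1, Grid1, fell (-0.19), as did 4 of 8 genes of glutamate transport and recycling, among them the neuronal transporter gene Slc1a1 (-0.21) and the astrocytic Slc1a2 (-0.31). None of the 3 genes of the RNA-editing enzyme family passed with edgeR, and none was at an unadjusted p under 0.05: Adarb1, whose product edits the Gria2 transcript, was at -0.05 (adjusted p = 0.466). Against Q140, the Q140 Msh3-/- libraries had rises in 4 organizer, 1 NMDA, 5 metabotropic, 1 delta and 3 transport genes, with no fall in these lists, and none of the 3 editing genes was called or at an unadjusted p under 0.05.

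**Figure D5:**
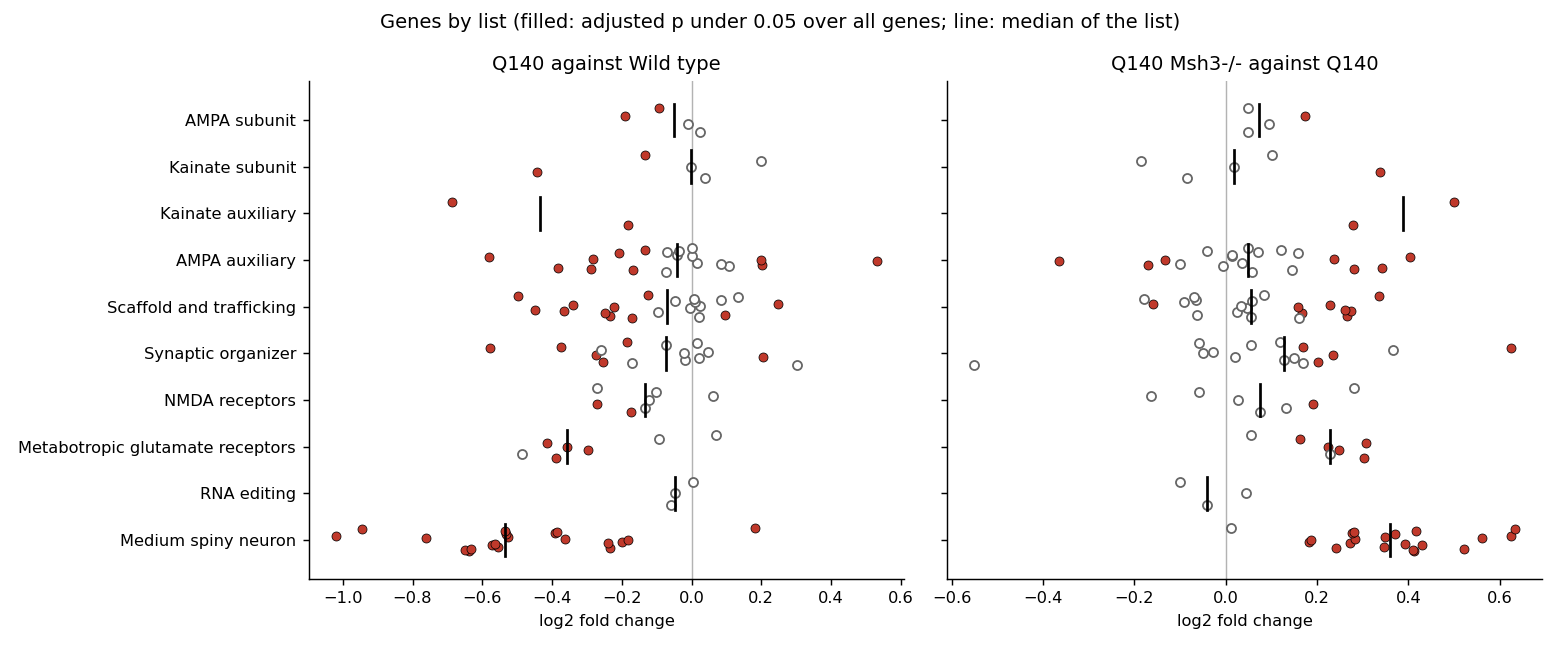
Log2 fold change of every tested gene of 10 lists in Q140 against wild type and in Q140 Msh3-/- against Q140, with filled points for an adjusted p under 0.05 and a line at each list's median. Medium spiny neuron genes have a median of -0.53 at the left and 0.36 at the right, while the subunit lists lie near 0 with Grik2 apart.

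Markers of cell types are given beside these results. Of all genes tested, 19.9% were called in Q140 against wild type and 11.9% in Q140 Msh3-/- against Q140. Of 20 medium spiny neuron genes 19 fell and 1 rose in Q140 against wild type, with the sums given beside Grik2. Of the 20, 19 rose in Q140 Msh3-/- against Q140, to a sum of 18130 to 20810 CPM. No marker was at 0 in any group, and the part of these cells in the subunit results was not tested. In Q140 against wild type 4 of 10 astrocyte, 3 of 10 microglial and 3 of 10 endothelial and mural genes fell. So did 1 of 10 oligodendrocyte, 1 of 9 GABAergic interneuron and 1 of 10 choroid plexus genes. The choroid plexus sum had a median of 35.11 CPM in Q140 and 35.54 CPM in wild type, where the highest library reached 640.6 CPM. What wild type libraries with high levels of these genes add to the fall was not tested. Of 10 oligodendrocyte precursor genes 1 rose and 1 fell, and 1 of 10 cortical neuron genes rose. None of 6 cholinergic genes passed, with 2 at an unadjusted p under 0.05. Set against Q140, in Q140 Msh3-/- 3 astrocyte, 1 microglial, 1 endothelial and mural and 1 GABAergic interneuron genes rose, 2 precursor, 1 cortical and 1 cholinergic genes fell, and no oligodendrocyte or choroid plexus gene was called.

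For each member that fell in Q140, the 3 genes of most like level over the 48 libraries were sought among 10064 genes with a mean log2 CPM of at least 3, by Pearson's r of log2 CPM. For Grik2 they were Ppp4r4 (r = 0.921), the dopamine D1 receptor gene Drd1 (0.899) and Rgs9, a striatal regulator of G protein signalling (0.895). With the means of group and sex removed, r was 0.809, 0.723 and 0.713. For Gria3 they were Dgkb (0.886), Ppp1r9a (0.876) and Etnk1 (0.876), and without group and sex means 0.796, 0.798 and 0.777. For Grik5 they were Camkk1 (0.788), Phyhip (0.759) and Nptxr (0.737), and for Gria4 Prps2 (0.699), Lin54 (0.694) and Ttll7 (0.69). These are descriptions over libraries that share their preparation and depth, and the first ranked were picked for being highest.

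The members themselves were only partly alike. Grik2 and Gria3 had an r of 0.783 over the 48 libraries and 0.515 with the means of group and sex removed. Gria1 and Gria3 had 0.357 over all and 0.647 without those means, and Gria2 and Gria3 had 0.562 and 0.635. Grik2 and Grik4 ran opposite, at -0.573 over all and -0.332 without the means. The kainate partners Grik2 and Grik5 had 0.414 over all and -0.005 without the means.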

How the data were processed

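Striatal RNA libraries were made with a TruSeq stranded kit, per the labels' protocols, and STAR 2.7.5c, SAMtools 1.10, HTSeq 0.12.3 and the build GRCm38/mm10 are named in the submitters' processing notes. The authors deposited a table of read counts per gene and a table of FPKM values. The strand setting of the counting and its annotation are not given in the sources used here. The FPKM equal counts over a fixed gene length and the library total. Counts were scaled by TMM (0.956 to 1.09). Genes were kept by filterByExpr with the groups given, which left out 0.0383% of counts. It asks for the equivalent of 10 reads in as many libraries as the smallest group has, and for 15 reads in all. The quasi-likelihood test of edgeR 4.0.16 was fitted over 48 libraries with group and sex. Benjamini-Hochberg adjustment covered 19975 genes, with a threshold of 0.05 for all 13 comparisons. DESeq2 1.42.0 and limma 3.58.1 on log2(FPKM + 0.1), which understates changes of low genes, were alternatives, with scaling, filters, covariates and libraries left out. The fit was also run on simulated counts with 200 genes changed in Q140, far fewer than were called in these data. The outcome is not given here, and that run does not bear on the calls reported. Library totals of 33.67 M to 52.81 M counts limit precision mainly for Grik1 and Grik4. The rule named all 9 members, up to 4 called genes of each list by smallest p in Q140 against wild type and in Q140 Msh3-/- against Q140 (2 where none was called), and the 3 genes most like each member called in Q140. The members and lists were chosen with earlier results of these data known. Coordinates are from GENCODE M21.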

Additional observations from a re-analysis of the deposited data

Results flagged for a closer look

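Over 54 groups of libraries (9 genes in 6 groups), 2 had a library far from the others in CPM, and chance alone flags about 1 in 20 groups, or 2.7 here. Both were the same library, Q140 Msh3-/- M4. It had 81.88 CPM of Gria4, where the other 7 libraries of that group ran from 90.41 to 93.71 CPM. It had 178.3 CPM of Grik3, where the others ran from 191.1 to 199.9 CPM. The Q140 effect on Grik2 differed between Msh3 backgrounds by 0.3889 on the log2 scale, being -0.05 on the Msh3-/- background and -0.44 with both Msh3 alleles (adjusted p = 0.00221 with edgeR).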

How the results depend on the processing

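Only part of the values recomputed under settings other than leaving out 1 library was counted. Counted were every member in Q140 against wild type and in Q140 Msh3-/- against Q140, and the shares in Q140. Elsewhere only called members were counted, with Grik2 and Gria3 in Q140 Msh3+/- against Q140 and in both interactions. Among these, 269 single-gene results kept direction and side of the threshold, 29 lost a call, 10 gained one, 19 changed sign and 7 shares moved. Sign changes of other values were not counted. The count of called subunits in Q140 against wild type was 2 with no filter and 3 with the replicate block, plate row, plate column or only the groups compared. In Q140 Msh3+/- against Q140 it was 1 with no filter, the replicate block, plate row, plate column, unfiltered FPKM or without the 5 libraries that stand apart, and 0 with only the groups compared, a setting that gave 1 in Q140 Msh3-/- against Q140. In Q140 Msh3+/- against Msh3+/- it was 0 with no filter, no sex term, the replicate block, plate row, all 3 FPKM fits or without those 5 libraries, and 2 with the stricter filter or DESeq2. Q140 Msh3+/- against wild type gave 2 in the FPKM fits, and the Msh3-/- interaction gave 2 with DESeq2. Over all genes the settings that keep these libraries or drop 5 gave 2895 to 6074 calls in Q140 against wild type (3969 reported), 4 to 831 in Q140 Msh3+/- against Q140 (395), 1687 to 4343 in Q140 Msh3-/- against Q140 (2374), 553 to 2188 in Q140 Msh3+/- against Msh3+/- (1289), 375 to 1389 in Q140 Msh3+/- against wild type (753) and 64 to 1190 in the Msh3-/- interaction (478). Leaving out 1 library gave counts of 2 to 4 in Q140 against wild type, without Q140 M1, Q140 M2 or wild type M1 at the low end, 1 to 2 in Q140 Msh3+/- against Q140, 0 to 2 in Q140 Msh3+/- against Msh3+/-, 0 to 1 in the Msh3+/- interaction and 1 to 2 in the Msh3-/- interaction. Grik2 ran from -0.48 to -0.42 in Q140 against wild type, 0.32 to 0.38 in Q140 Msh3-/- against Q140 and 0.37 to 0.43 in that interaction, called in all 48. The cause of these shifts was not tested.

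Among the values counted above, signs turned only for small changes. In Q140 against wild type Gria2 was at 0.001159 with plate row, 0.06903 on log2(FPKM + 0.1) with or without the filter and 0.068 with a pseudocount of 1, and Grik3 at 0.003711 with the replicate block and 0.0755 or 0.07251 in the same FPKM fits. Grik1 was at -0.02295 with plate row and -0.04482 without the 5 libraries. In Q140 Msh3-/- against Q140 the FPKM fits put Gria1 at -0.0142 or -0.01408, Gria4 at -0.01524 or -0.01442 and Grik3 at -0.04255 or -0.04091. With 1 library left out, Gria2 ran from -0.033 to 0.017, Grik1 from -0.025 to 0.093 and Grik3 from -0.023 to 0.019 in Q140 against wild type, and Grik3 from -0.00143 to 0.036 in Q140 Msh3-/- against Q140. On CPM the Q140 shares were 34.26% for Gria1, 49.21% for Gria2, 11.93% for Gria3, 4.637% for Gria4, 21.84% for Grik2, 31.56% for Grik3 and 43.72% for Grik5.

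The labels' replicate numbers gave no sign of pairing the libraries. Of 115 same-number pairs 96 correlated above 0.1 (lowest -0.0532), as did 304 of 364 pairs of one sex with other numbers. The submitters' library names also share stems within and across groups. What those stems stand for is not stated, and no fit used them, so shared origin of libraries was not tested. With the replicate block the Gria4 fall had an adjusted p of 0.0516. Counts of 127 to 268 reads limit Grik1.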

Other observations

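Sex was also compared within each group, in 54 exact permutation tests (9 genes, 6 groups), and none passed Benjamini-Hochberg adjustment. With groups this small no gene can pass alone over 54 tests, however far apart its sexes lie. The lack of a pass therefore decides nothing. Grik2 in Q140 Msh3-/- averaged 159.0 ± 12.2 CPM in females and 185.4 ± 5.52 CPM in males (SD, n = 4 each), with every female below every male (two-sided exact p = 0.0286, the smallest this size allows, adjusted p = 0.771). Grik4 in the same group averaged 13.21 CPM in females and 11.01 CPM in males with the same exact p. Gria3 in Msh3+/- averaged 273.3 CPM in 5 females and 253.5 CPM in 4 males (two-sided exact p = 0.0476). The pattern was picked after its values were seen.

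Htt itself averaged 191.7 ± 16.3 CPM in Q140 and 209.2 ± 3.15 CPM in wild type (SD, n = 8 and n = 7). It averaged 215.4 ± 12.1 CPM in Q140 Msh3-/- and 211.2 ± 15.4 CPM in Q140 Msh3+/- (SD, n = 8 each). No test of Htt is given here.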
